A study of Mus musculus with 37 samples.

Results

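Cells in which a transcript of Myocd was detected were compared with cells in which a transcript of Myod1 was detected, among mouse embryonic fibroblasts that had been given a pool of 48 factors. Myocd cells held at least 1 count of Myocd and 0 counts of Myod1. Myod1 cells held at least 1 count of Myod1 and 0 counts of Myocd. The cells were thus selected on their measured counts of Myocd and Myod1, which are described below and not tested. Of 8563 cells, 226 were Myocd cells (2.64%), 316 were Myod1 cells (3.69%), 36 held counts of both factors and 7985 held neither. Within each library, Myocd and Myod1 cells were paired 1 to 1 on their total counts, which gave 203 pairs in 31 libraries with at least 3 pairs each. A cell with neither factor was added to each pair as a reference.

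The fibroblasts were of the ICR background and were collected 7 days after infection with retroviral vectors. All samples received the same pool, and no untreated cells were among them, so the Myocd cells, the Myod1 cells and the reference cells all came from samples given that pool. The pool held 48 factors, among them Mef2c, Gata4, Gata5, Gata6, Hand1, Hand2, Tbx5, Nkx2-5, Isl1, Mesp1 and 5 microRNAs. The labels give 1 biological replicate in 37 technical replicates, so every p-value measures the spread between libraries of 1 biological replicate and does not extend to others. Counts do not separate transcripts of the vectors from those of the cells' own genes, and a cell with 0 counts of a factor may still carry it.

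Myod1 encodes a basic helix-loop-helix factor that binds E-box sequences and can turn fibroblasts into skeletal muscle cells, with myogenin (Myog) and the Mef2 factors among its targets. Myocd encodes myocardin, a coactivator that binds serum response factor at CArG boxes and turns on contractile genes of smooth muscle and, in the heart, of cardiomyocytes. Both programs include actins, myosins, tropomyosins and calponins or troponins, but use different members of these families.

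Counts of individual cells were obtained by Drop-seq, a droplet method in which the polyadenylated RNA of a cell is captured on a barcoded bead. The 8563 cells held 119796414 counts, and the median cell held 8558. Technical replicates 4 and 6 shared 59 barcodes and were treated as 1 library, and any other 2 libraries had at most 4 barcodes in common. The libraries came in 3 series by name, JD, PZ47-PZ48 and PZ58. Cells with a detected factor were deep, at a median of 17605.5 counts in Myocd cells, 12271.5 in Myod1 cells, 23425.5 in cells with both and 8272 in cells with neither. Pairing narrowed this gap without closing it. The paired medians were 17444 and 12877 counts, the median pair differed 1.19-fold, and 28 of the 203 pairs differed by more than 2-fold.

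Most factor calls rested on few counts. Of the Myocd cells, 172 held 1 count of Myocd, 34 held 2 and 20 held 3 or more, with 16 at the most. Of the Myod1 cells, 170 held 1 count of Myod1, 56 held 2 and 90 held 3 or more, with 46 at the most. The cells just inside the rule therefore differed from those just outside it by a single count. Both kinds of cell were found in all 3 series, with 89, 105 and 32 Myocd cells and 141, 134 and 41 Myod1 cells in JD, PZ47-PZ48 and PZ58. Over 36 libraries the share of Myocd cells ran from 0% to 6.21% with a median of 2.29%, and that of Myod1 cells from 1.05% to 6.68% with a median of 3.63%.

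Promoters of 6 genes that differed between the sets are shown to let the motifs of both factors be read beside the values below. All 6 are examples that hold the marked motif, and the shares over all windows follow the sequences. Only 1 kind of motif is marked in each. Each sequence is the 250 bases before the annotated start on the gene's strand (RefSeq, GRCm38.p6). In the first 3, from genes higher in Myod1 cells, capitals mark the E-box motif CANNTG, which reads the same on both strands. CAGCTG is one of its forms.
Myog, encoding the muscle regulator myogenin, chr1:134289754-134290003, plus strand: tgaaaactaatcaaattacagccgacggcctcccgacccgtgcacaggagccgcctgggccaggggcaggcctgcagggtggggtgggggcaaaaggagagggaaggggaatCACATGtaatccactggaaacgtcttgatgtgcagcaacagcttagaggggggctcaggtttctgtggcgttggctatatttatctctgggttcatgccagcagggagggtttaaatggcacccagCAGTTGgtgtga
Chrng, encoding the fetal gamma subunit of the acetylcholine receptor, chr1:87205561-87205810, plus strand: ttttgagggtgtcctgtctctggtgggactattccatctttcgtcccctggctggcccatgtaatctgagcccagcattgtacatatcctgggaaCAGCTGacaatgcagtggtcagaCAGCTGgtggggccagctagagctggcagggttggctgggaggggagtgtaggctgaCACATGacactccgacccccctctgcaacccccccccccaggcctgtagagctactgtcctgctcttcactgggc
Mylpf, encoding the regulatory light chain of fast skeletal myosin, chr7:127211358-127211607, plus strand: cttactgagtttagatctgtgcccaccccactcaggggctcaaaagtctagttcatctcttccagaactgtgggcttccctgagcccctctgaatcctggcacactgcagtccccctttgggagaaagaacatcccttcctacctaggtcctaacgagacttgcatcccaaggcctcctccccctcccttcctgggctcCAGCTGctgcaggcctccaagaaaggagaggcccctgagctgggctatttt
In the next 3, from genes higher in Myocd cells, capitals mark the CArG box, the site of serum response factor, searched on both strands with at most 1 C or G among its 6 inner bases.
Acta2, encoding smooth muscle actin, chr19:34255374-34255623, minus strand: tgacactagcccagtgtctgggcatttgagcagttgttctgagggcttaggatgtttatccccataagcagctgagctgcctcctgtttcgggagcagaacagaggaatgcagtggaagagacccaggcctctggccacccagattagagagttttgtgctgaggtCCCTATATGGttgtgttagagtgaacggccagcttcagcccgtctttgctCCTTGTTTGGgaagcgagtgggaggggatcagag
Myl9, encoding the regulatory light chain of smooth muscle myosin, chr2:156775214-156775463, plus strand: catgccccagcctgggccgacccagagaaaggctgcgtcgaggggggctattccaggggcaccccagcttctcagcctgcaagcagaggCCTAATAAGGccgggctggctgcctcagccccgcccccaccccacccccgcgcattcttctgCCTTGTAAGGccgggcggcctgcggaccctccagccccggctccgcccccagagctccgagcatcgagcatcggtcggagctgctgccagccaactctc
Vcl, encoding the adhesion protein vinculin, chr14:20929148-20929397, plus strand: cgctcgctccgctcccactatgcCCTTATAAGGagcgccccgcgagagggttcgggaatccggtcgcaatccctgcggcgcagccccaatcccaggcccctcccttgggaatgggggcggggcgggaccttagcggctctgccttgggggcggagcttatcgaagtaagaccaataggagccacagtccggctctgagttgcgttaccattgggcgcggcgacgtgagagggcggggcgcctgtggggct

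A motif in a promoter is a description and not evidence of binding. Motifs were counted in windows of 300 bases, which add to the stretches shown the 50 bases after the start. CANNTG was found in 72.3% of all 32851 windows and CAGCTG in 16.3%. The share of CANNTG was 63.7% in windows of all genes tested, 71.7% for genes higher in Myod1 cells and 62.9% for genes higher in Myocd cells. Of the 729 windows of genes higher in Myod1 cells, 25.4% held CAGCTG, against 16.5% of the 617 windows of genes higher in Myocd cells and 15.7% of those of all genes tested. The CArG box without any inner C or G was found in 1.63% of all windows and in 1.41% of those of all genes tested. It was found in 3.24% of those of genes higher in Myocd cells and in 2.33% of those of genes higher in Myod1 cells. With at most 1 inner C or G, these shares were 9.98%, 8.91%, 13.0% and 10.6%. By list, this form was found in 9 of 24 windows of the actin cytoskeleton list, 6 of 18 of the skeletal sarcomere list and 3 of 23 of the smooth muscle list. No promoter entry was found for Tagln, Actg2 or Myh11.

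The first question was how far the transcriptomes of Myocd cells and Myod1 cells differed. The counts of the paired cells were summed per library and set, and 13030 genes with at least 20 counts were tested with edgeR's quasi-likelihood test, with the library as a block and Benjamini-Hochberg adjustment, from which all adjusted p-values here come. At an adjusted p under 0.05, 586 genes were higher in Myocd cells, which is 4.5% of the genes tested, and 700 were higher in Myod1 cells, which is 5.37%, or 9.87% in either direction. The median log2 fold change over all genes was 0.02. Against the cells with neither factor, Myocd cells differed in 248 higher genes (1.82% of 13609) and 82 lower ones (0.603%), and Myod1 cells in 933 higher genes (6.86%) and 544 lower ones (4%). These comparisons share the reference cells, so their values are given side by side and not set against each other. The shares of all genes in brackets apply to every count of list members against the reference below.

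**Figure D1:**
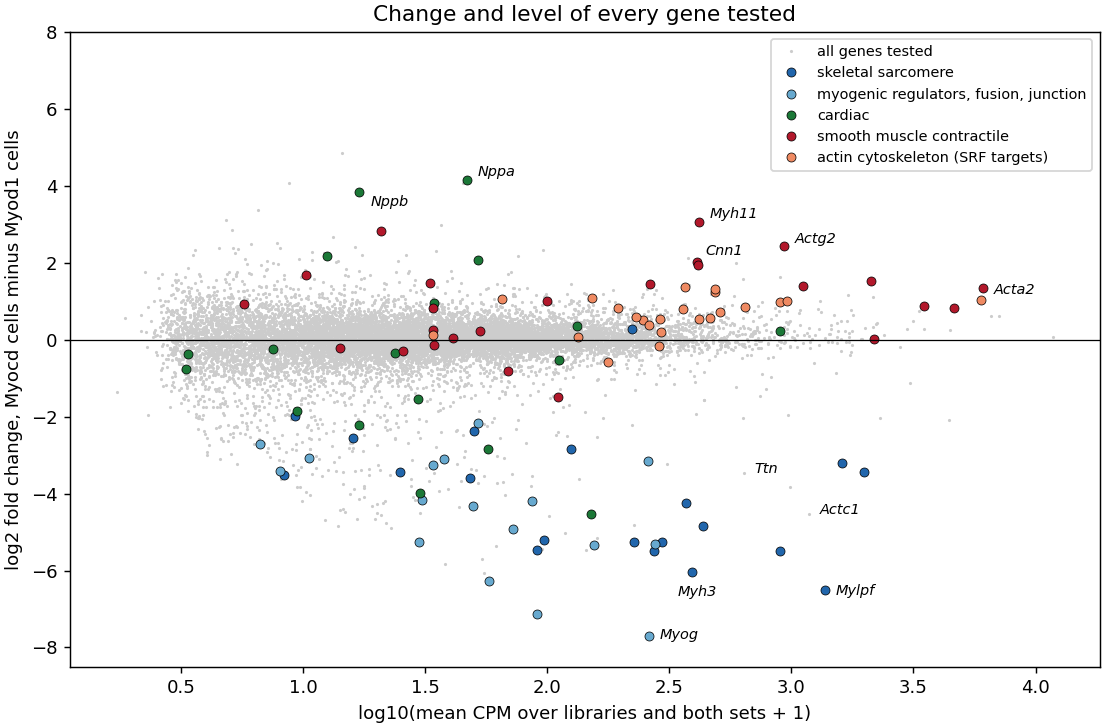
Log2 fold change of Myocd cells minus Myod1 cells (vertical axis) against the mean level over 31 libraries and both sets (log10 of CPM + 1, horizontal axis) for the 13030 genes tested, as grey points, with the members of 5 gene lists in colour. Skeletal sarcomere genes and myogenic regulators lie at the bottom, down to -7.69 for Myog, while smooth muscle and actin cytoskeleton genes lie above 0 with few exceptions and cardiac genes lie on both sides.

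Lists of genes by role gave the outline of the difference. All 17 tested members of the list of myogenic regulators, fusion and neuromuscular junction genes were higher in Myod1 cells, as were 19 of 20 skeletal sarcomere genes, 18 of 23 sarcomere genes shared by heart and skeletal muscle, 12 of 21 calcium handling genes and 11 of 15 genes of muscle metabolism. No tested member of these lists was higher in Myocd cells. In Myocd cells, 15 of 25 smooth muscle contractile genes and 17 of 23 actin cytoskeleton genes known as targets of serum response factor were higher, with 1 member of each list in the other direction. These shares stand against 4.5% and 5.37% of all genes tested.

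**Figure D2:**
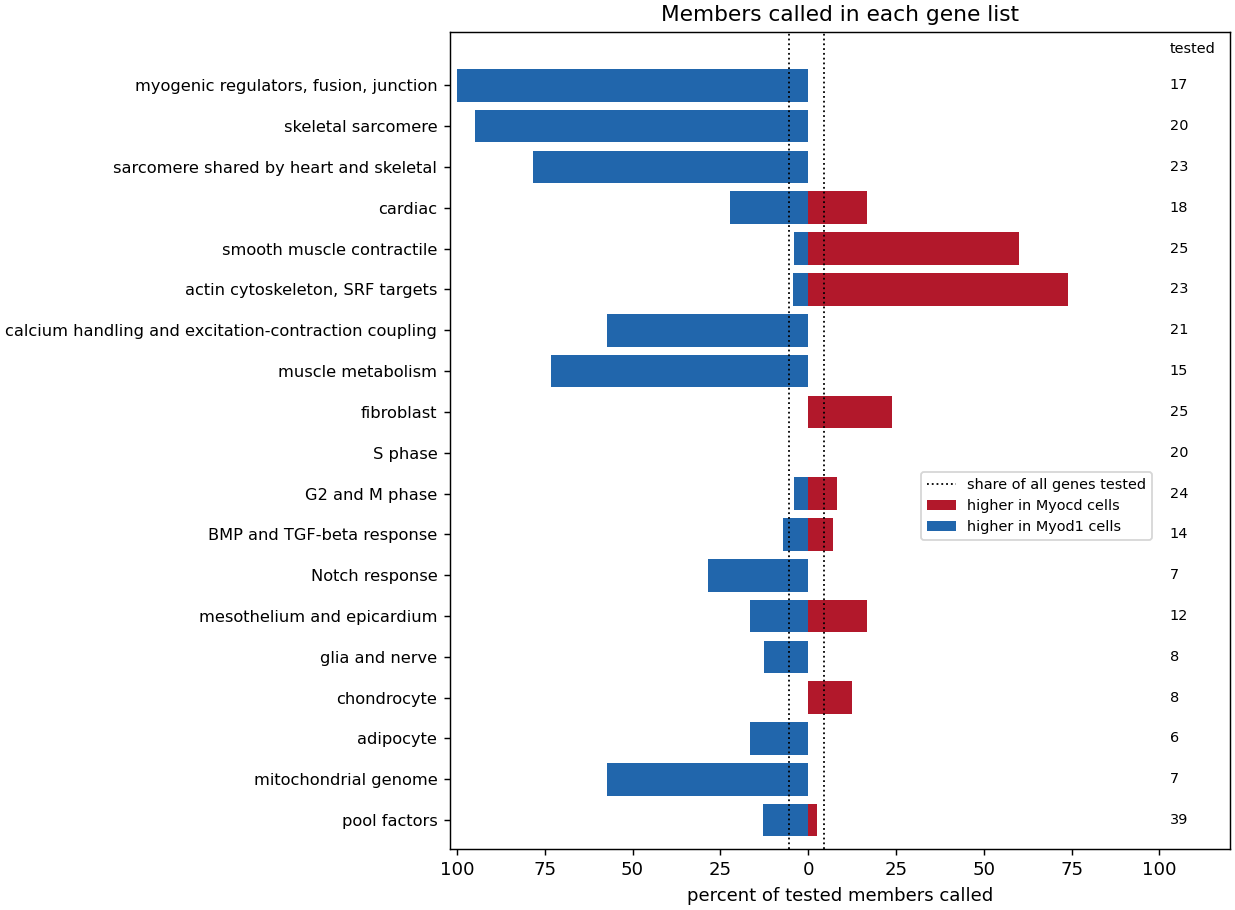
Percent of the tested members of each gene list that were called higher in Myocd cells (red, to the right) or higher in Myod1 cells (blue, to the left), with the number tested at the right edge and the shares of all genes tested as dotted lines. The skeletal, shared striated, calcium and metabolism lists extend to the left alone, the cardiac list to both sides, and the smooth muscle and actin cytoskeleton lists extend to the right.

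Among the myogenic regulators, Myog showed the largest difference. Its level in the 31 libraries of Myod1 cells ran from 0 to 1773 CPM (counts per 1000000 counts of the summed cells) with a median of 363.2, while in Myocd cells the highest library stood at 7.08 CPM and the median at 0. Myog was higher in Myod1 cells in 28 libraries and in Myocd cells in none, at 520 ± 526 against 0.611 ± 1.73 CPM (mean ± SD, n = 31), with a log2 fold change of -7.69 ± 0.26 (SE, adjusted p = 1.3e-27). In the reference cells it stood at 1.31 ± 5.11 CPM. The groups overlapped at 0, since 3 libraries of Myod1 cells held no count of Myog.

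Genes of myoblast fusion and of the nerve-muscle contact moved with it. Mymx, which encodes the fusion peptide myomixer, held 454 counts in Myod1 cells of 25 libraries and 0 in Myocd cells, so that it was at least 178-fold higher in Myod1 cells when the empty set is given 3 counts. Chrng held 323 counts in 26 libraries against 1 count, with a log2 fold change of -6.26 ± 0.28 (adjusted p = 5.6e-22). Chrna1, encoding the alpha subunit of the same receptor, was at 304 ± 273 against 6.10 ± 22.7 CPM. Hes6, a helix-loop-helix factor that favours differentiation, was also detected in Myocd cells, at 44.2 ± 32.8 CPM, but at 471 ± 390 CPM in Myod1 cells and higher there in 30 of 31 libraries. The median log2 fold change of the 17 members was -4.18. Against the reference, all 17 were higher in Myod1 cells and 1 in Myocd cells.

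Sarcomere genes of skeletal muscle followed the same direction. Mylpf, the fast myosin light chain, ran from 3.10 to 12200 CPM in the libraries of Myod1 cells with a median of 2460, and from 0 to 1154 CPM in Myocd cells with a median of 5.77. It was higher in Myod1 cells in 30 of 31 libraries, at a log2 fold change of -6.50 ± 0.41 (adjusted p = 1.9e-17). The 1 remaining library was higher in Myocd cells, and a single cell held 52.9% of all Mylpf counts of the paired Myocd cells. Myh3, the embryonic myosin heavy chain, was at 744 ± 680 CPM in Myod1 cells and at 40.8 ± 172 CPM in Myocd cells. The fast and slow troponins Tnnt3, Tnni2 and Tnni1 had log2 fold changes of -5.50, -5.47 and -5.50, so both fiber types' genes were among those that differed.

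Summed over the list, skeletal sarcomere genes made up 15380 ± 13100 CPM in Myod1 cells, 1716 ± 2356 in Myocd cells and 587 ± 644 in the reference cells. Myocd cells exceeded Myod1 cells in 2 of 31 libraries. The median log2 fold change of the 20 tested members was -3.92, and the single member that was not called was Tpm3 (0.28, adjusted p = 0.17), a tropomyosin that non-muscle cells also make. Against the reference cells, 19 members were higher and 1 lower in Myod1 cells, and 7 were higher in Myocd cells, Myh3 (2.90) and Tnnt3 (2.47) among them. In a summed level, more cells with the program and more RNA of it per cell cannot be told apart, and the values per cell are given below.

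Sarcomere genes that heart and skeletal muscle share were raised in both sets but further in Myod1 cells. Actc1, the cardiac alpha actin that is also made by young skeletal fibers, stood at 2084 ± 2062 CPM in Myod1 cells, 281 ± 624 in Myocd cells and 23.8 ± 102 in the reference cells. Its log2 fold change was -4.53 ± 0.55 between the sets (adjusted p = 1.1e-08), 7.35 in Myod1 cells against the reference and 3.19 in Myocd cells against the reference (adjusted p = 0.0017). Its level in Myocd cells differed by series, at 15.2, 366 and 466 CPM for JD, PZ47-PZ48 and PZ58, while Myod1 cells held 1348, 1472 and 899 CPM. Tnnt2, cardiac troponin T, was at 3550 ± 2712, 1061 ± 1225 and 270 ± 627 CPM in Myod1, Myocd and reference cells, with a log2 fold change of -2.02 ± 0.37 between the sets. The giant scaffold titin (Ttn, -3.47) and the filament protein desmin (Des, -1.29) differed likewise. Of the 23 members, 22 were higher in Myod1 cells and 14 in Myocd cells than in the reference cells.

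**Figure D3:**
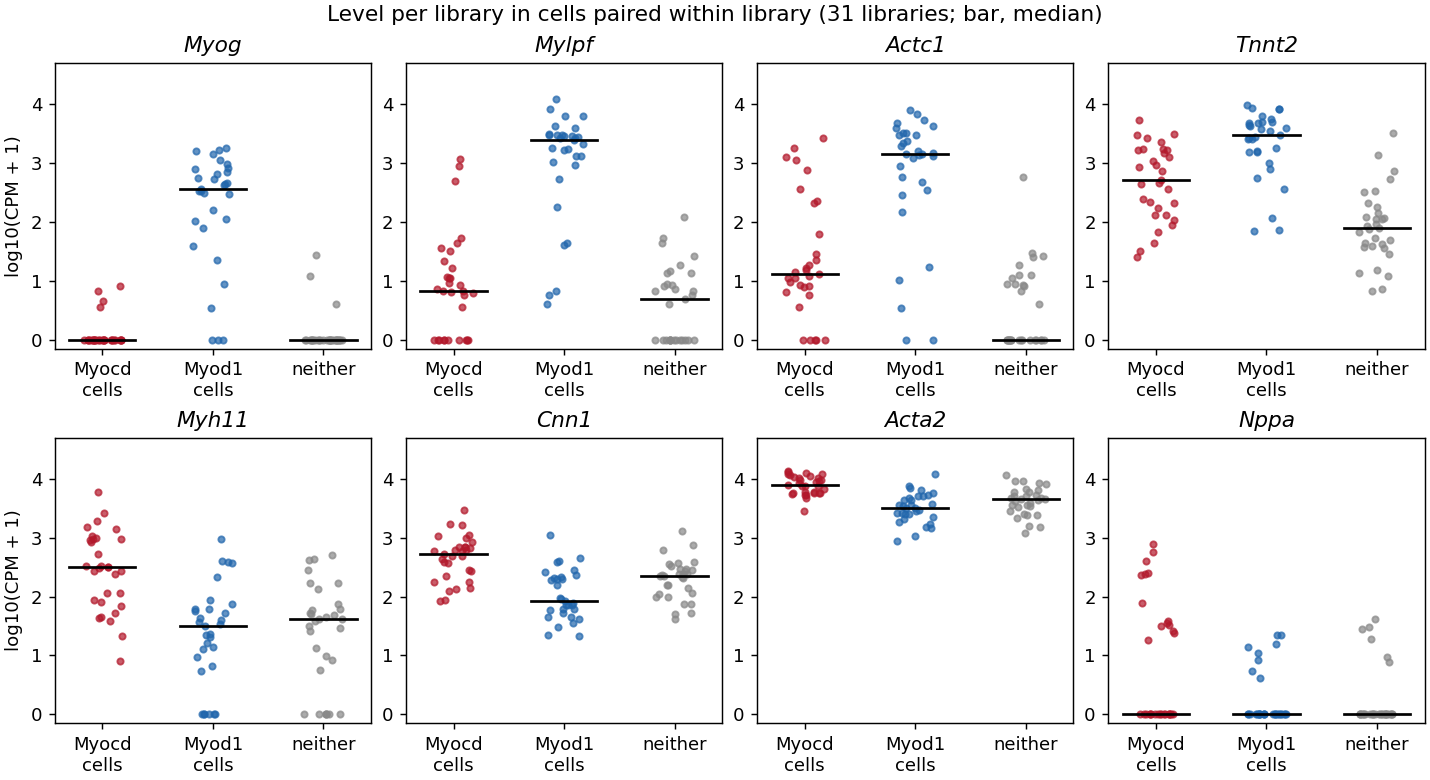
Level of 8 genes in each of 31 libraries (log10 of CPM + 1, vertical axis) in paired Myocd cells, Myod1 cells and cells with neither factor, with the median as a bar. Myog and Mylpf are highest in most libraries of Myod1 cells, with Myog near 0 elsewhere and Mylpf up to 1154 CPM in Myocd cells, Actc1 and Tnnt2 are highest in Myod1 cells and intermediate in Myocd cells, Myh11, Cnn1 and Acta2 are highest in Myocd cells, and Nppa is above 50 CPM in some libraries of Myocd cells and in none of the others.

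Genes that couple excitation to contraction and genes of muscle metabolism divided in the same way. Cacng1, a subunit of the skeletal calcium channel, held 241 counts in Myod1 cells and 1 count in Myocd cells (-5.84 ± 0.34). The skeletal ryanodine receptor Ryr1 (-3.68), the calcium pump Atp2a1 (-4.02) and the calcium-binding Hrc (-3.74) were higher in Myod1 cells, while the cardiac Ryr2 (0.08, adjusted p = 0.98) and the widely expressed pump Atp2a2 (-0.14, adjusted p = 0.62) were not called. Myoglobin (Mb) was at 228 ± 234 against 5.93 ± 15.9 CPM, and the muscle isoforms Cox8b and Cox6a2 of cytochrome oxidase had log2 fold changes of -3.92 and -3.07. The median log2 fold change was -2.10 over the 21 calcium genes and -2.03 over the 15 metabolic genes. Of the 7 tested genes of the mitochondrial genome, 4 were higher in Myod1 cells, against 5.37% of all genes. The amounts were small, such as -0.47 ± 0.10 for mt-Nd2.

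The skeletal difference went together with Mef2c, which is a factor of the pool and also a gene that muscle cells express. Mef2c itself was at 569 ± 546 CPM in Myod1 cells, 45.8 ± 66.4 in Myocd cells and 30.0 ± 26.3 in the reference cells, with a log2 fold change of -3.23 ± 0.29 (adjusted p = 3.1e-12). Skeletal sarcomere genes made up 17284 CPM (95% Poisson interval 17159 to 17409) of the summed counts of the 178 Myod1 cells with Mef2c and 663 CPM (628 to 699) of those of the 138 Myod1 cells without it. In Myocd cells the levels with and without Mef2c were 1333 and 1090 CPM, and in cells with neither factor 788 and 505 CPM. These intervals cover counting error alone, and cells with Mef2c were deeper, at medians of 16582 and 11318 counts in those Myod1 cells with at least 5000. Which of the factors, if any, set these levels was not tested.

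When all cells with a count of Mef2c were left out, 87 pairs in 17 libraries remained, and 86 genes were higher in Myocd cells and 31 in Myod1 cells. Of the skeletal sarcomere list only Tnnt1 was still called (-2.41 ± 0.60, adjusted p = 0.030). Its members Myh3 (2.07), Acta1 (1.53) and Tnni1 (0.26) had the opposite sign from that over all pairs without being called, as had Actc1 (0.98), Ttn (1.04) and Tnnt2 (1.05) of the list shared by heart and skeletal muscle. Selecting cells without Mef2c also removes cells by a transcript that itself differed between the sets.

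Of the 31 genes higher in Myod1 cells without Mef2c, 27 were also called over all pairs. The following were chosen after their values were seen. Cdh15, which encodes the adhesion molecule M-cadherin of myoblasts, was at -3.72 ± 0.53 (adjusted p = 3.3e-05) against -4.18 over all pairs. The acetylcholine receptor anchor Rapsn was at -3.04 and Hes6 at -1.51. The imprinted growth genes Igf2, H19, Peg3 and Cdkn1c were at -1.31, -2.09, -1.37 and -1.86, close to -1.11, -2.09, -1.11 and -1.96 over all pairs. Of the list of myogenic regulators, only Cdh15, Rapsn and Hes6 were still called, and Myog was not. Summed over all 138 Myod1 cells without Mef2c, paired or not, Myog held 26 counts, or 12.9 CPM (95% Poisson interval 8.4 to 18.9). Cells with neither factor and without Mef2c stood at 2.8 CPM (2.4 to 3.3). These intervals cover counting error alone. The smooth muscle side was still called without Mef2c, with Myh11 at 3.00, Cnn1 at 2.12 and Acta2 at 1.49.

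**Figure D4:**
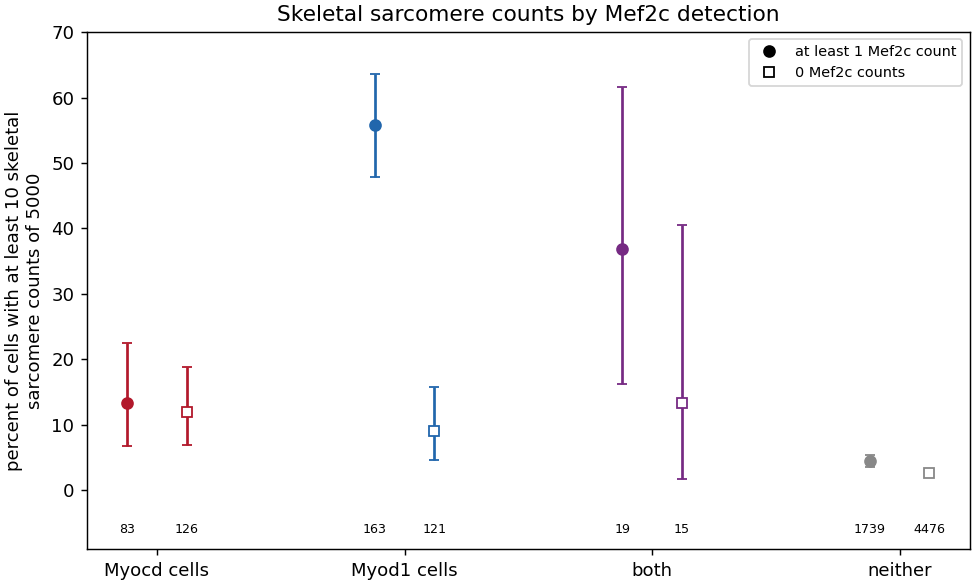
Percent of cells with at least 10 skeletal sarcomere counts after each cell was thinned to 5000 counts (vertical axis, with exact 95% binomial intervals over cells), for cells with (filled circles) and without (open squares) a Mef2c count in the 4 sets. The number of cells is written under each point. Myod1 cells with Mef2c stand at 55.8% and those without at 9.09%, and Myocd cells at 13.3% and 11.9%. The intervals cover counting error alone and not the spread between libraries. Mef2c was read before thinning, so cells with it had been deeper. The shares depend on the depth kept. Thinned to 2500 and 10000 counts, Myod1 cells without Mef2c stood at 2.21% and 18.4%, and those with it at 53.1% and 57.0%.

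Single cells showed that the skeletal program was carried by part of the Myod1 cells. The summed level of the skeletal sarcomere list had a median of 6.84 counts per 10000 in Myod1 cells, a 75th percentile of 189 and a 90th percentile of 592. In Myocd cells these values were 4.15, 7.89 and 25.6. With a level of 100 per 10000 as a dividing line, chosen after the values were seen, 89 of 316 Myod1 cells (28.2%, exact 95% interval 23.3 to 33.5) from 32 libraries were at or above it, and 18 Myod1 cells lay between 50 and 200. The corresponding shares were 7 of 226 Myocd cells (3.10%), 6 of 36 cells with both (16.7%) and 49 of 7985 cells with neither (0.614%).

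The 89 Myod1 cells with a high skeletal level differed from the other 227 in several transcripts, given here as a description. Mef2c was detected in 88 of the 89 and in 90 of the 227, Myog in 76 and 22, and Mymx in 68 and 8. They held a median of 3 counts of Myod1 against 1, at median totals of 12877 and 12145 counts. Their median level of fibroblast genes was 50.7 per 10000 against 262, and that of the actin cytoskeleton list 39.7 against 104. The smooth muscle list was at 121 and 115. The 7 Myocd cells at or above the line held no Myog count, but 5 of them held Myh11 and 3 Nppa, and their median level of cardiac genes was 107 per 10000 against 27.7 in the 89 Myod1 cells.

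**Figure D5:**
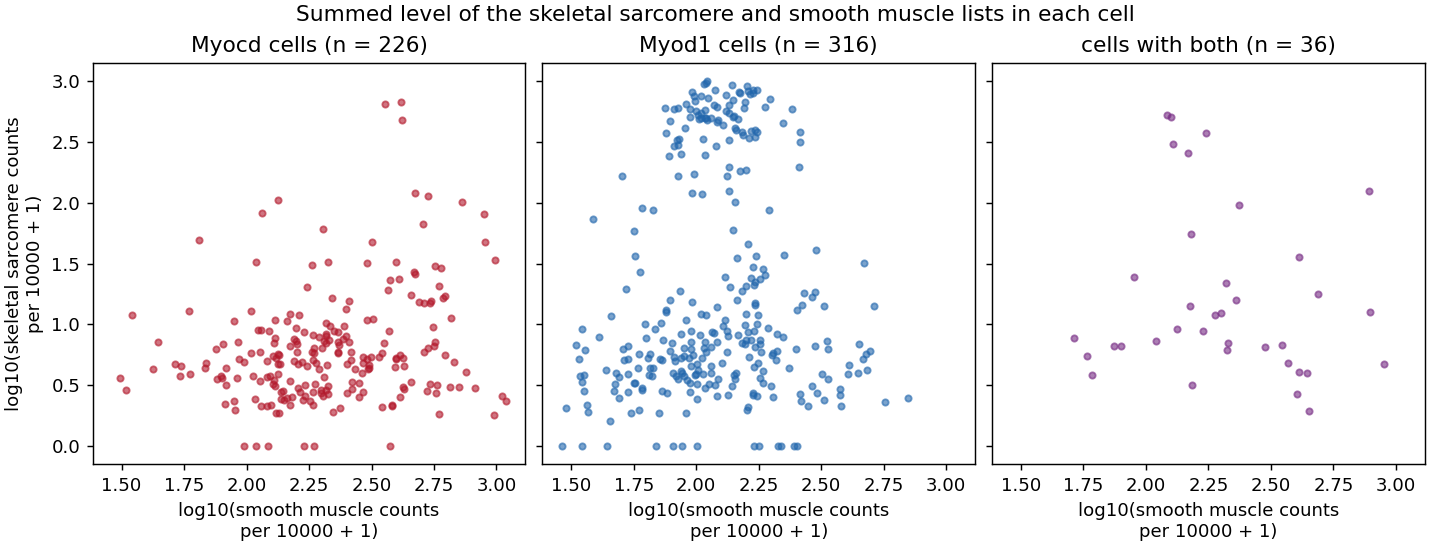
Summed level of the skeletal sarcomere list (vertical axis) against that of the smooth muscle list (horizontal axis), both as log10 of counts per 10000 + 1, with 1 point per cell, for 226 Myocd cells, 316 Myod1 cells and 36 cells with both factors. A group of Myod1 cells lies above 2 on the vertical axis, while Myocd cells extend further to the right and 7 of them reach 2 on the vertical axis.

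The skeletal level was higher in cells with more counts of Myod1. Summed over cells with 1, 2 and 3 or more counts of Myod1, the list made up 3776, 11492 and 21192 CPM, against 609 CPM in cells with neither. The smooth muscle list showed no such order with Myocd, at 30680, 25523 and 33208 CPM in cells with 1, 2 and 3 or more counts, against 18721 CPM in cells with neither. Cells with more counts of a factor were also deeper, and the 3 Myocd groups held 172, 34 and 20 cells. The counts of both factors also chose the cells, so these orders are a description and were not tested. Transcripts of the vector and of the cells' own Myod1 gene cannot be told apart.

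For the shares, each cell was thinned to 5000 counts, so that a gene was scored at equal depth in all cells. The sets were still those chosen on unthinned counts, where cells with a detected factor were deeper. Thinning left 209 Myocd cells, 284 Myod1 cells, 34 cells with both and 6215 with neither. Myog was then found in 28.5% of Myod1 cells, 0.957% of Myocd cells and 1.83% of cells with neither, the last serving as the background. Before thinning, Myog was found in 2.65% of Myocd cells. Mylpf was found in 33.8%, 5.74% and 6.76%, so that Myocd cells did not exceed the cells with neither. Actc1 was found in 32.0% of Myod1 cells, 10.5% of Myocd cells and 5.00% of cells with neither.

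Contractile genes of smooth muscle were one of the groups higher in Myocd cells. Myh11, the smooth muscle myosin heavy chain (chromosome 16), ran from 7.03 to 5985 CPM in the libraries of Myocd cells with a median of 320.8, from 0 to 958 CPM in Myod1 cells with a median of 30.3, and from 0 to 514 CPM in the reference cells with a median of 39.97. The libraries overlapped, but Myocd cells were higher in 25 of 31, at 737 ± 1165 against 97.1 ± 195 CPM. The log2 fold change was 3.07 ± 0.38 (adjusted p = 1.6e-08), 2.81 in Myocd cells against the reference (adjusted p = 3.4e-06) and -0.32 in Myod1 cells against it (adjusted p = 0.80). Myh11 was found in 34.9% of thinned Myocd cells, 13.0% of Myod1 cells and 16.2% of cells with neither.

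Other members of the list were abundant in all sets and differed by less. Acta2, the smooth muscle actin that cultured fibroblasts also make, was at 8360 ± 2837 CPM in Myocd cells, 3803 ± 2328 in Myod1 cells and 4804 ± 2504 in the reference cells, and was higher in Myocd cells in 29 of 31 libraries (1.35 ± 0.17, adjusted p = 1.6e-08). Cnn1, calponin, was at 646 ± 604 against 170.9 ± 210 CPM (2.02 ± 0.27) and Tagln, transgelin, at 3055 ± 1633 against 1197 ± 767 CPM (1.53 ± 0.19). Against the reference, Acta2 was at 0.95 (adjusted p = 3.4e-05) in Myocd cells and at -0.39 (adjusted p = 0.10) in Myod1 cells. Cnn1 and Tagln were at 1.23 and 0.73 in Myocd cells and at -0.84 and -0.79 in Myod1 cells, all 4 called.

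Actg2, the enteric smooth muscle actin (2.43), Mylk, the kinase of the myosin light chain (1.94), Myl9 (1.40), Lmod1, leiomodin of thin filaments (1.44), and Kcnmb1, a subunit of the potassium channel of smooth muscle (2.83), were higher in Myocd cells as well. Smtn, smoothelin, was not called (0.22 ± 0.21, adjusted p = 0.63). The member in the other direction was Npnt, nephronectin of the basement membrane (-1.50, adjusted p = 9.3e-05). Summed over the list, the levels were 30110 ± 12530 CPM in Myocd cells, 15170 ± 5963 in Myod1 cells and 17900 ± 7033 in the reference cells, and Myocd cells were higher than Myod1 cells in 29 of 31 libraries. Against the reference, 15 of 25 members were higher in Myocd cells, and 4 were higher and 3 lower in Myod1 cells.

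Cytoskeletal genes known as targets of serum response factor were also higher in Myocd cells, with a median log2 fold change of 0.74 over the 23 members, against 0.94 over the smooth muscle list. Actb, beta actin, was at 7778 ± 2060 CPM in Myocd cells, 4137 ± 1717 in Myod1 cells and 6453 ± 1744 in the reference cells, with a log2 fold change of 1.03 ± 0.11 (adjusted p = 5.1e-10) and a higher value in Myocd cells in 30 of 31 libraries. Against the reference it was at 0.32 (adjusted p = 0.061) in Myocd cells and at -0.71 (adjusted p = 2.5e-08) in Myod1 cells. Tpm4, a cytoskeletal tropomyosin, was higher in Myocd cells in all 31 libraries (1.01 ± 0.11). Csrp1 (1.26), Vcl (0.81) and Cnn2 (0.99) were also called, and Srf, serum response factor itself, was not (0.12 ± 0.21, adjusted p = 0.84). The exception was Egr1, an immediate early gene, at -0.59 (adjusted p = 0.023). Over the 23 members, 7 were higher in Myocd cells and none lower than in the reference, and in Myod1 cells 7 were lower and none higher.

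Cardiac genes did not differ in 1 direction between the sets. Of 18 tested members, 3 were higher in Myocd cells and 4 in Myod1 cells, against 4.5% and 5.37% of all genes. The median log2 fold change between the sets was -0.36. Against the reference cells the median was 1.80 in Myocd cells and 1.77 in Myod1 cells. The natriuretic peptide genes Nppa and Nppb, which atrial and stressed heart muscle express, were on the Myocd side. Nppa ran from 0 to 783 CPM over the libraries of Myocd cells with a median of 0, and its highest library in Myod1 cells stood at 21.6 CPM. It was found in 20 of 203 Myocd cells, 11 Myod1 cells and 7 reference cells, and 1 cell held 33.8% of the counts of Myocd cells. The log2 fold change was 4.16 ± 0.51 (adjusted p = 8.9e-08), and the antisense gene Gm13054 that overlaps Nppa held 425 counts against 444 of Nppa in Myocd cells. Whether the counting used strand is not stated, so reads of the pair cannot be told apart. Nppb was at 30.4 ± 61.3 against 1.64 ± 5.01 CPM (3.85 ± 0.56) with 21 against 4 cells.

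Mybpc3 was the third, cardiac myosin-binding protein C (2.09, adjusted p = 0.019). On the Myod1 side was Myh7, the slow and cardiac myosin heavy chain, at 292 ± 426 against 7.71 ± 20.0 CPM (-4.52 ± 0.39), with Myh7b (-2.22), Myoz2 (-3.99) and Gja5 (-2.83). Slow skeletal fibers also express Myh7, Myh7b and Myoz2. Myh6, the alpha myosin heavy chain of the heart, was not called between the sets (-1.53, adjusted p = 0.12), and was higher than in the reference, where it held 0 counts, in both Myocd cells (adjusted p = 0.0069) and Myod1 cells (adjusted p = 7.9e-06). The atrial light chain Myl7 was not called (2.19, adjusted p = 0.12), and 1 cell held 92.5% of its counts in Myocd cells. The sum of the list was 1541 ± 763 CPM in Myocd cells, 1707 ± 1081 in Myod1 cells and 571 ± 483 in the reference cells, and 8 members were higher in Myocd cells and 9 in Myod1 cells than in the reference.

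Some of the largest differences on the Myocd side lay outside the lists and rested on few cells. Uts2b, a urotensin peptide gene, held 147 counts in 10 of 203 Myocd cells and 0 counts in Myod1 cells, which makes it at least 41.6-fold higher when the empty set is given 3 counts. Nptx2, a neuronal pentraxin, was more widespread, at 63.1 ± 68.4 against 8.49 ± 16.5 CPM in 57 and 17 cells (2.98 ± 0.34). Glipr1 was higher in Myocd cells in 29 of 31 libraries (2.33 ± 0.27). The exons of Glipr1 overlap on the other strand those of Krr1, which was also higher in Myocd cells (1.47), so the reads of both cannot be told apart. F13a1, coagulation factor XIII, passed at an adjusted p of 0.034 (2.40 ± 0.74), but was found in 7 Myocd cells, of which 1 held 61.7% of the counts. On the Myod1 side, Apobec2 (-6.05), Art1 (-5.69) and Ankrd2 (-5.46), which skeletal muscle expresses, were among the genes with the largest differences.

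Both sets held fibroblast transcripts throughout, as the label of the cells says. Col1a1 was found in 98.6% of thinned Myocd cells and 89.1% of Myod1 cells, and did not differ by the test (0.28 ± 0.18, adjusted p = 0.40). The fibroblast list summed to 25210 ± 4286 CPM in Myocd cells, 19890 ± 6637 in Myod1 cells and 29160 ± 4998 in the reference cells. Of its 25 members, 6 were higher in Myocd than in Myod1 cells, Lox, the collagen cross-linking oxidase (1.02 ± 0.18), Sparc (0.61) and Fbn1, fibrillin (0.55), among them, and none was higher in Myod1 cells. Of all genes tested, 4.5% were higher in Myocd cells and 5.37% in Myod1 cells. Against the reference, 14 members were lower in Myod1 cells and 5 in Myocd cells, beside 4% and 0.603% of all genes, and none was higher.

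Markers of cell types other than muscle and fibroblasts were found in both sets. The 14 macrophage genes summed to 33.4 ± 25.3 CPM in Myocd cells and 30.4 ± 13.3 in Myod1 cells. The 12 endothelial genes summed to 71.2 ± 38.8 and 52.1 ± 36.9 CPM. Of each of these lists 4 genes were tested, with none called. The mesothelium and epicardium list summed to 493 ± 609 CPM in Myocd cells, 271 ± 245 in Myod1 cells and 459 ± 617 in the reference cells, and was higher in Myocd than in Myod1 cells in 21 of 31 libraries. Of its 12 tested genes, Ildr2 (1.32, adjusted p = 0.00066) and the keratin Krt19 (2.06, adjusted p = 0.0046) were higher in Myocd cells, and Lrrn4 (-2.69) and Msln (-1.64, adjusted p = 0.043) in Myod1 cells. The shares of all genes called were 4.5% and 5.37%. Krt19 was still called without cells with Mef2c (3.23). The adipocyte list stood at 377 ± 359 and 408 ± 318 CPM, and its member Cd36, a fatty acid transporter that muscle also makes, was higher in Myod1 cells (-4.18 ± 0.46, adjusted p = 3.4e-09). The chondrocyte list stood at 377 ± 202 and 276 ± 136 CPM, with the cartilage collagen Col2a1 higher in Myocd cells (1.80, adjusted p = 0.0043). Erbb3, a receptor listed among glial genes, held 47 counts in Myod1 cells and 4 in Myocd cells. It was the one called of 8 glial genes, near the 9.87% of all genes called. The part of these cell types in the results was not tested.

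Among genes of the cell cycle, none of 20 S phase genes was called, at a median log2 fold change of 0.35. The 24 genes of G2 and M phase had a median of 0.72, against 0.02 over all genes, and 3 of them were called, against 9.87% of all genes. Of these, Cdc20 (1.1, adjusted p = 0.021) and Anln (1.16, adjusted p = 0.035) were higher in Myocd cells. Ube2c was higher in Myod1 cells (-1.55 ± 0.40), but its exons overlap on the other strand those of the fast troponin Tnnc2 (-5.26), so the reads of both cannot be told apart. Top2a was not called (0.63, adjusted p = 0.41). Summed over the G2 and M phase list, the levels were 2481 ± 2347 CPM in Myocd cells and 1974 ± 1367 in Myod1 cells. Myocd cells were higher in only 11 of 31 libraries. On the scale of the levels per cell above, the median was 3.08 in all 226 Myocd cells and 4.67 in all 316 Myod1 cells. The sums and levels per cell include Ube2c. The positive median fold change was thus not a shift seen in most libraries. Cdkn1a, an inhibitor of the cell cycle that is also in the pool, was higher in Myod1 cells, at 1551 ± 797 against 928 ± 384 CPM (-0.61 ± 0.13). Of the Notch list, the target Heyl (-2.19) and the ligand Dll1 (-1.93) were higher in Myod1 cells among 7 tested genes, against 5.37% of all genes.

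Some other factors of the pool differed between the sets, 6 of 39 tested, against 9.87% of all genes. Lbh was higher in Myocd cells (0.69 ± 0.18), and Mef2c, Mef2a (-0.92 ± 0.19), Mef2d (-0.59, adjusted p = 0.039), Foxn4 (-1.42 ± 0.41) and Cdkn1a were higher in Myod1 cells. In thinned cells Mef2c was found in 12.9% of Myocd cells, 40.1% of Myod1 cells, 29.4% of cells with both and 14.6% of cells with neither. Gata6, whose share was 25.8% and 23.9% in Myocd and Myod1 cells against 14.2% in cells with neither, was not called between the sets (0.23, adjusted p = 0.77), and neither was Mesp1 (0.29, adjusted p = 0.77), at 9.57%, 9.86% and 2.75%. Endogenous and delivered transcripts of these genes cannot be told apart.

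The 36 cells with counts of both factors, from 23 libraries, held transcripts of both programs when summed. Over these cells, the smooth muscle list was at 25278 CPM (95% Poisson interval 25005 to 25554), between 30330 in Myocd cells and 14288 in Myod1 cells. The skeletal sarcomere list was at 4957 CPM (4836 to 5079), between 1219 and 11956. Myh11 was at 453 CPM and Myog at 171.4 CPM, against 514 and 1.01 in Myocd cells and 69.8 and 328 in Myod1 cells. At 5000 counts per cell, Myh11 was found in 35.3% and Myog in 14.7% of 34 such cells. Of the 6 cells above 100 skeletal counts per 10000, 4 held Myog and 2 held Myh11, with a median smooth muscle level of 137 per 10000. Of the other 30, 4 held Myog and 19 held Myh11, with a median smooth muscle level of 209. The sums also differed by series. The skeletal sarcomere list was at 20863 CPM over the 6 cells of PZ58, 3160 CPM over those of JD and 2977 CPM over those of PZ47-PZ48. Most of the PZ58 value came from 1 cell, which stood at 525 skeletal counts per 10000 and held 47086 of the 135554 counts of the 6 cells. The Poisson intervals cover counting error alone and not such differences between cells. These cells were the deepest of the 4 sets, and droplets that captured more than 1 cell were not removed, so the part of such droplets was not tested.

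Myog and Myh11 differed in the same direction in each series. In the summed paired cells, Myog was at 0.506, 0.908 and 1.30 CPM in Myocd cells of JD, PZ47-PZ48 and PZ58, and at 254, 416 and 208 CPM in Myod1 cells. Myh11 was at 761, 429 and 300 CPM in Myocd cells and at 73.2, 90.2 and 28.4 CPM in Myod1 cells. Tested within a series, 141 and 290 genes were higher in Myocd and Myod1 cells of JD, 276 and 344 of PZ47-PZ48, and 15 and 42 of PZ58 with its 30 pairs. No gene called over all libraries was called in the opposite direction within any series.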

How the data were processed

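Drop-seq data of 37 technical replicates of 1 biological replicate were used. The authors deposited tables of whole-number counts, with genes in rows and cell barcodes in columns. The submitters' processing notes name STAR 2.5.3a, featureCounts 1.5.3, UMI-tools, bcl2fastq 2.17.1.14 and the build mm10. Whether reads were counted by strand, with which annotation release and how multiply placed reads were treated is not given in the sources used here, so values of overlapping genes are uncertain. Of the 89 genes named by the rule below, 33 overlap exons of another gene. Of 27998 Ensembl rows, 27645 matched a symbol. Of 8730 barcodes, 89 found in another library and 78 within 1 base of a larger one were dropped. No doublet caller was run. Libraries of kept cells held 637680 to 7921171 counts.

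Myocd and Myod1 cells were paired on total counts within library and summed per library. Since each library supplied both sets, the library number pairs the sums, and it entered as a block. Myocd and Myod1 were left out of the test. Genes with at least 20 counts were tested with edgeR 4.0.16 (TMM, quasi-likelihood test, R 4.3.3); DESeq2 1.42.0 was an alternative. Counts for the comparison of Myocd and Myod1 cells over 12859 genes were simulated at a fixed dispersion of 0.2. Changes were placed only in genes with at least 100 counts. On these counts the test found 65 of 100 genes changed 2-fold and 100 of 100 changed 4-fold, with 1 false call. The simulation did not model counts held mostly by single cells, so these rates need not hold for the real sums. The SE of a log2 fold change was derived from the test, as its absolute value divided by the square root of the F statistic. CPM are counts per 1000000 of the summed cells. Shares were computed after thinning cells to 5000 counts, and intervals are exact at 95% and cover counting error only.

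The members, gene lists and tests were chosen with earlier results of these data known. Named genes are the 12 highest and 12 lowest called log2 fold changes with at least 20 CPM and 1 sign in all 3 series, up to 4 called members per list with the smallest p, called pool factors, and 29 fixed anchor genes; others are said to be chosen later or complete a count. Positions and promoters are of GRCm38.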

Additional observations from a re-analysis of the deposited data

How the results depend on the processing

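In none of the settings was a gene that was called over all pairs called in the opposite direction. The calls higher in Myocd and in Myod1 cells stayed within 1.5 times of 586 and 700 with DESeq2 (524 and 727), with RLE size factors (490 and 829), with at least 1 or 100 counts per gene, with other matching within series, and after thinning each pair to equal totals (467 and 681). Without the library as a block, the paired analysis gave 609 and 817 calls. Leaving out each library in turn gave 484 to 632 and 605 to 735 calls, with 19 skeletal sarcomere, 14 to 15 smooth muscle and 15 to 18 actin cytoskeleton genes called. Such omissions changed the call of Anln in 10 cases, Msln in 14, Postn in 7, F13a1 in 4, Cdc20 and Myh6 in 2, and Foxn4 and Myl7 in 1. The counts moved further in other settings. They were 27 and 96 for pairs within 1.1-fold in depth (11 skeletal, 5 smooth muscle and 0 actin cytoskeleton genes), 334 and 414 with at least 2 counts of the factor, 86 and 31 without Mef2c (1, 9 and 9), 247 and 324 without Gata6 (11 actin cytoskeleton genes), 141 and 290 for JD alone (7), 276 and 344 for PZ47-PZ48 alone, 15 and 42 for PZ58 alone (10, 4 and 0), 323 and 410 without JD, 192 and 385 without PZ47-PZ48, and 66 and 158 (4 actin cytoskeleton genes) in libraries with high ribosomal Rps27a, above 100 CPM. These settings hold fewer pairs, with 87 pairs each in those without Mef2c and without Gata6. The cause of the moves was not tested. Values that changed sign were those of Myh6 without the block (0.06) and in PZ47-PZ48 (0.437), Col1a1 when matched by series (-0.144) and without Mef2c (-0.053), Smtn within 1.1-fold (-0.39), with 2 counts (-0.364), without the deepest 5% of cells (-0.03) and in JD (-0.02), Srf within 1.1-fold (-0.223), without the deepest cells (-0.023), in JD (-0.224), without PZ47-PZ48 (-0.024) and without PZ58 (-0.001), and Lbh in JD (-0.003). Without Mef2c the signs of Myh3 (2.071), Tnni1 (0.264), Cox6a2 (0.873), Fbn1 (-0.215), Ube2c (0.087), Mef2a (0.025), Acta1 (1.527), Actc1 (0.983), Ttn (1.041), Tnnt2 (1.053) and Top2a (-0.292) changed. The classes of libraries by Rps27a, the omission of whole series, of the libraries with shared barcodes and of single libraries with a held dispersion trend, and the settings of the comparisons with the reference were chosen after seeing the data. Depth limits the sets, since most cells held 1 count of their factor.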
